A study of Homo sapiens with 4 samples.

Results

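The APOBEC3 cytidine deaminases are 7 human genes, APOBEC3A, APOBEC3B, APOBEC3C, APOBEC3D, APOBEC3F, APOBEC3G and APOBEC3H, and were taken as every spot other than a control whose gene name on the array was one of these. This gave 7 of 27193 gene names, 8 of 34127 probes and 17 of 43118 spots. The study asked which genes differ in expression when the kinase PAK1 is depleted. All 4 human arrays were of MCF10A.B2 cells, a derivative of the MCF10A mammary epithelial line that carries a chimeric, chemically activatable form of Her2. The control group (2 arrays) is labelled Pak1 wild type, and the PAK1 shRNA group (2 arrays) stably expressed a tetracycline-inducible shRNA against Pak1. Every culture was grown in DMEM/F12 with 5% horse serum, starved of serum for 3 h and given the dimerizer AP1510 for 15 min to activate Her2.

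The labels call the control cells wild type, the study's methods name them without mention of a shRNA, and no array of a non-targeting shRNA was analysed here, so PAK1 depletion and the expression of a shRNA as such cannot be told apart. The series design speaks of cells from tumors, while the labels name the cell line. How the replicates were obtained is not stated, so p-values measure only the spread between these arrays, which may be technical. All 4 arrays lay on 1 slide. Between 78.9% and 83.2% of the probes were well above background on an array, and the number of arrays limits the precision. PAK1 itself had a normalized log2 intensity of 11.19 and 11.27 on the control arrays against 10.44 and 10.52 on the PAK1 shRNA arrays. Its level in PAK1 shRNA cells was 59.5% of that in control cells (log2 fold change -0.75, SE 0.08, adjusted p = 0.000182, limma with Benjamini-Hochberg adjustment).

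APOBEC3 enzymes remove the amino group from cytosine in single-stranded DNA, which leaves uracil. They restrict retroviruses and endogenous retroelements, and the genes lie side by side on chromosome 22 as a product of repeated duplication, so their sequences are close. Several are known to be induced by interferon, and APOBEC3B in particular has been tied to C-to-T and C-to-G mutations in breast and other epithelial cancers. In normal tissue much APOBEC3 expression is found in blood cells, and in bulk samples such as these fewer cells of a type and less RNA per cell cannot be told apart.

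The array reads each gene with probes of 60 bases, and the closeness of the family shows in the probes. The probe of APOBEC3C and that of APOBEC3F transcript variant 1 (NM_145298) cover the same stretch of the paralogous genes, and are shown here because cross-hybridization between them could blur the values of both. In the 53 bases that they share (bases 1 to 53 of the first, 8 to 60 of the second) 50 were identical and 3 differed, which are in capitals. Their sequences, from the scanner files and 5′ to 3′, were as follows.
APOBEC3C: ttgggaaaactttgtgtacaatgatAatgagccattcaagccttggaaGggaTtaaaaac
APOBEC3F variant 1: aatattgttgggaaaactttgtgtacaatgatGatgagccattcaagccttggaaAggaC
With positions counted from 1 at the 5′ end of the APOBEC3C probe and its base written first, the differences were A26G, G49A and T53C. The longest run without a difference was 25 bases.

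The other pairs of probes were much further apart. The APOBEC3G probe covers the corresponding stretch of its gene, and its bases 9 to 60 are set against the APOBEC3C probe below, with capitals where they differ.
APOBEC3G: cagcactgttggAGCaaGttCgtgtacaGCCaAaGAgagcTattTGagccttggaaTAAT
Of 52 overlapping bases 34 were identical, and at 65.4% this was the highest identity over at least 30 bases among the other 27 of the 28 pairs of probes. No other pair shared a run of more than 10 bases. The probes of APOBEC3B, APOBEC3D and APOBEC3H, given because their genes passed the test, were as follows, in lower case throughout.
APOBEC3B: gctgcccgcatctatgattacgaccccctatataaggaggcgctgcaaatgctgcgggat
APOBEC3D: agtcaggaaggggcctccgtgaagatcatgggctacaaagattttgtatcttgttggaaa
APOBEC3H: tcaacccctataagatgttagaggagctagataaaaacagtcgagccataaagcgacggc
Against the 34119 probes for other genes, no APOBEC3 probe had more than 33 identical bases. The scanner file lists for the APOBEC3B probe, beside the APOBEC3B transcript, a transcript of APOBEC3A and one of APOBEC3A_B, a gene formed by a deletion that joins the neighbouring pair. Its value may therefore include signal from these transcripts.

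In PAK1 shRNA cells 5 of the 7 genes rose (APOBEC3A, APOBEC3D, APOBEC3F, APOBEC3G and APOBEC3H), APOBEC3B fell and APOBEC3C did not pass the test (limma with Benjamini-Hochberg adjustment over 22001 genes, threshold 0.05). All 7 passed the filter on dim probes, APOBEC3A through the PAK1 shRNA arrays alone, so that the filter itself asked for a difference there. With probes well above background on all arrays required, APOBEC3A was not tested and 4 genes rose. Of all genes tested 31% rose and 31.9% fell, so that 62.9% were called in one direction or the other. The fitted rise was at least 2-fold in 4 of the 7 genes and in 8.85% of all genes tested, and no member fell by as much, against 8.96% of all genes. Of these 4, APOBEC3A had only a bound under 2-fold, APOBEC3F fell short of it with the mean over its probes (log2 fold change 0.93), and APOBEC3H did so with the background correction normexp fitted on all spots (0.66). APOBEC3G stayed above it in each of these settings. In none of the 7 did the groups overlap, as in 81.8% of all genes, and PAK1 shRNA cells were the higher in 6 of the 7 and in 42.1% of all genes. The median log2 fold change was 1.14 for the 7 genes and 0.02 for all genes.

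**Figure D1:**
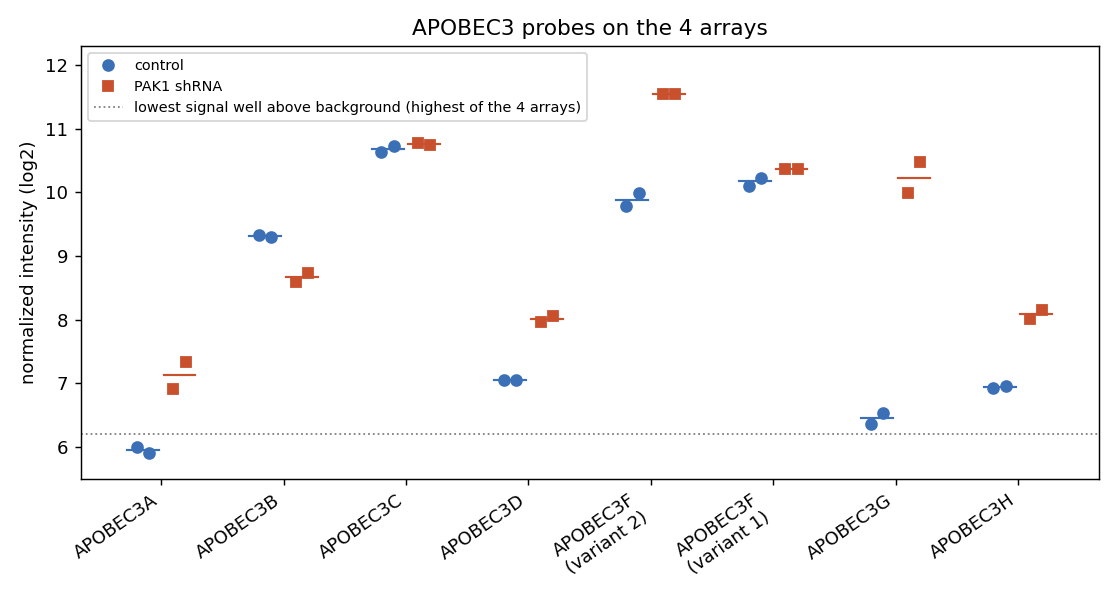
Normalized log2 intensity of each APOBEC3 probe on the 2 control arrays (blue circles) and the 2 PAK1 shRNA arrays (red squares), with group means as lines; the dotted line is the lowest signal called well above background, taken as the highest of the 4 arrays (6.21). APOBEC3A sits under that line on both control arrays, and APOBEC3G rises from 6.45 to 10.23 in the mean.

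APOBEC3G is a protein with a pair of deaminase domains that is packaged into HIV-1 particles unless the viral protein Vif removes it. Its probe (chr22:39477481-39477540, hg19 as in the files) had a normalized log2 intensity of 6.37 and 6.53 on the control arrays against 9.996 and 10.47 on the PAK1 shRNA arrays. Both control values were low, just over the limit for a signal well above background, and both PAK1 shRNA values were far above them. The scanner signal before any correction was 74.2 and 74.3 in control cells and 849.5 and 1159 in PAK1 shRNA cells. The mean went from 6.45 ± 0.12 to 10.23 ± 0.33 (SD, n = 2 each), a 13.8-fold rise (log2 fold change 3.78, SE 0.16, adjusted p = 4.1e-06, limma with Benjamini-Hochberg adjustment). Among the 22001 genes tested 130 had a larger log2 fold change. The size depended on the processing: it was 2.48 when normexp was fitted on all spots and 5.88 on the 75th percentile scale of the processed signal.

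The genes whose values over the 4 arrays lay nearest to APOBEC3G, by Euclidean distance between log2 values centred on the control mean, were PRDM8 (distance 0.08), IL7R (0.13) and ENST00000515519 (0.13). PRDM8 belongs to the PRDM family of zinc finger proteins, and IL7R is the receptor chain for interleukin-7. Their log2 fold changes were 3.73, 3.87 and 3.71. With 2 arrays a group such likeness describes mostly the size of the change.

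APOBEC3F, another deaminase that Vif counteracts, has 2 probes, and they differed. The probe for transcript variant 2 (NM_001006666, chr22:39440368-39440427) stood for the gene, being the brighter in the mean over the 4 arrays. It was so only through the PAK1 shRNA arrays, where it was high, since on the control arrays the other probe read higher, so the rule for probes favoured the one that rose. It read 9.79 and 9.98 on the control arrays and 11.54 on each of the PAK1 shRNA arrays, so the groups did not overlap. The rise was 3.15-fold (9.89 ± 0.14 to 11.54 ± 0.0027, SD, n = 2 each, log2 fold change 1.66, SE 0.09, adjusted p = 1.16e-05, limma with Benjamini-Hochberg adjustment).

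The probe for transcript variant 1 (chr22:39448588-39448647), which starts 8220 bases further along the chromosome, read 10.1 and 10.23 on the control arrays and 10.37 on each of the PAK1 shRNA arrays. Its log2 fold change was 0.20 (SE 0.08, adjusted p = 0.062 over 27517 probes, limma with Benjamini-Hochberg adjustment) and did not pass. It passed in 2 alternatives, at 0.17 with normexp fitted on all spots and at 0.26 without control replicate 2. Of all probes tested 63.8% were called.

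The variant 2 probe minus the variant 1 probe was -0.32 and -0.25 on the log2 scale on the control arrays against 1.17 and 1.18 on the PAK1 shRNA arrays. The change of the first exceeded that of the second by 1.46. An exact permutation test of this difference, two-sided, gave p = 0.333, the smallest that 2 arrays against 2 allow. With the mean over both probes the log2 fold change of APOBEC3F was 0.93 and still passed. The 2 probes, listed for different transcript variants, thus did not give the same size for one gene. The variant 1 probe is the one that shares 50 bases with the APOBEC3C probe. Whether signal passed between those paralogs, or whether the variants changed alike, was not tested.

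APOBEC3C, a deaminase with 1 catalytic domain, was printed 10 times on each array, so its value rests on more spots than that of any other member. The probe (chr22:39414287-39414346) had mean log2 intensities of 10.64 and 10.72 on the control arrays against 10.78 and 10.75 on the PAK1 shRNA arrays. The 10 spots ranged from 10.4 to 10.89 on the first control array and from 10.51 to 10.99 on the first PAK1 shRNA array, with an SD within an array of 0.18 to 0.20, and the same spots were dim or bright on every array. The log2 fold change was 0.08 (SE 0.07, adjusted p = 0.364, limma with Benjamini-Hochberg adjustment). Under median centring it was -0.04, so that no direction can be given.

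**Figure D2:**
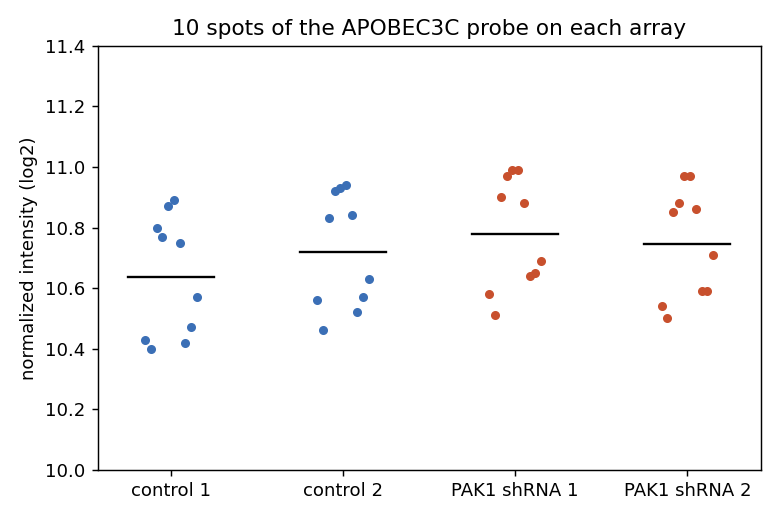
Normalized log2 intensity of the 10 spots of the APOBEC3C probe on each of the 4 arrays, with the mean of each array as a line. The spots of every array spread over about the same range, and the array means lie between 10.64 and 10.78.

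The scanner signal of APOBEC3C went the other way before normalization, with medians over the 10 spots of 2187 and 1816 on the control arrays against 1450 and 1434 on the PAK1 shRNA arrays. The median signal of all probes fell alike, from 500.9 and 383.5 to 326.1 and 318.7. Brightness of the whole array therefore moved with the groups, and the spot-to-spot coefficient of variation of APOBEC3C was 12.4% to 14.2%.

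APOBEC3H, a deaminase with 1 domain and several natural haplotypes that differ in stability, rose 2.21-fold. Its probe (chr22:39497974-39498033) read 6.93 and 6.95 on the control arrays against 8.02 and 8.15 on the PAK1 shRNA arrays. The log2 fold change was 1.14 (6.94 ± 0.01 to 8.08 ± 0.09, SD, n = 2 each, SE 0.08, adjusted p = 3.34e-05, limma with Benjamini-Hochberg adjustment). It was 0.66 with normexp fitted on all spots and 2.02 on the 75th percentile scale.

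APOBEC3D, like APOBEC3F and APOBEC3G a restriction factor with a pair of domains, rose 1.94-fold. Its 60 bases span 284 bases of the genome (chr22:39427939-39428222), so the probe crosses a splice junction. The readings were 7.05 on both control arrays against 7.97 and 8.06 on the PAK1 shRNA arrays. The log2 fold change was 0.96 (7.05 ± 0.0048 to 8.01 ± 0.06, SD, n = 2 each, SE 0.07, adjusted p = 5.52e-05, limma with Benjamini-Hochberg adjustment), with 0.55 under normexp on all spots and 1.62 on the 75th percentile scale.

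APOBEC3A, a deaminase with 1 domain known in myeloid cells and keratinocytes, was not well above background on either control array and was so on both PAK1 shRNA arrays. The probe (chr22:39359092-39359151) read 6.002 and 5.901 in control cells and 6.92 and 7.33 in PAK1 shRNA cells. Before correction the scanner signal was 46.9 and 42.6 on the control arrays, against a local background of 41 and 44, and 95.8 and 125.1 on the PAK1 shRNA arrays. As processed here the level in PAK1 shRNA cells was at least 1.95-fold higher, with the control arrays set to their lowest signal well above background (fitted log2 fold change 1.17, SE 0.14, adjusted p = 0.00037, limma with Benjamini-Hochberg adjustment). The fitted value ranged from 0.60 to 4.76 over the alternatives, and the highest adjusted p was 0.0659, with the unpaired test that the methods name for the study in general and not for the arrays.

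APOBEC3B, a largely nuclear deaminase with a pair of domains, was the member that fell. Its probe (chr22:39387538-39387597) read 9.33 and 9.30 on the control arrays against 8.59 and 8.74 on the PAK1 shRNA arrays. Both PAK1 shRNA values lay under both control values, and the scanner signal was 856.8 and 646.2 against 320.2 and 354.1. The level in PAK1 shRNA cells was 63.6% of that in control cells (9.32 ± 0.02 to 8.66 ± 0.10, SD, n = 2 each, log2 fold change -0.65, SE 0.08, adjusted p = 0.000494, limma with Benjamini-Hochberg adjustment). Over the alternatives the log2 fold change was between -0.73 and -0.47. Its change was smaller than a 2-fold one throughout, and 16.8% of the genes tested had a smaller log2 fold change.

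The profiles nearest to APOBEC3B were those of TJP1, a tight junction scaffold (distance 0.03), the zinc finger gene ZC3H6 (0.04) and LOC284023 (0.05). Their log2 fold changes were -0.64, -0.65 and -0.65.

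**Figure D3:**
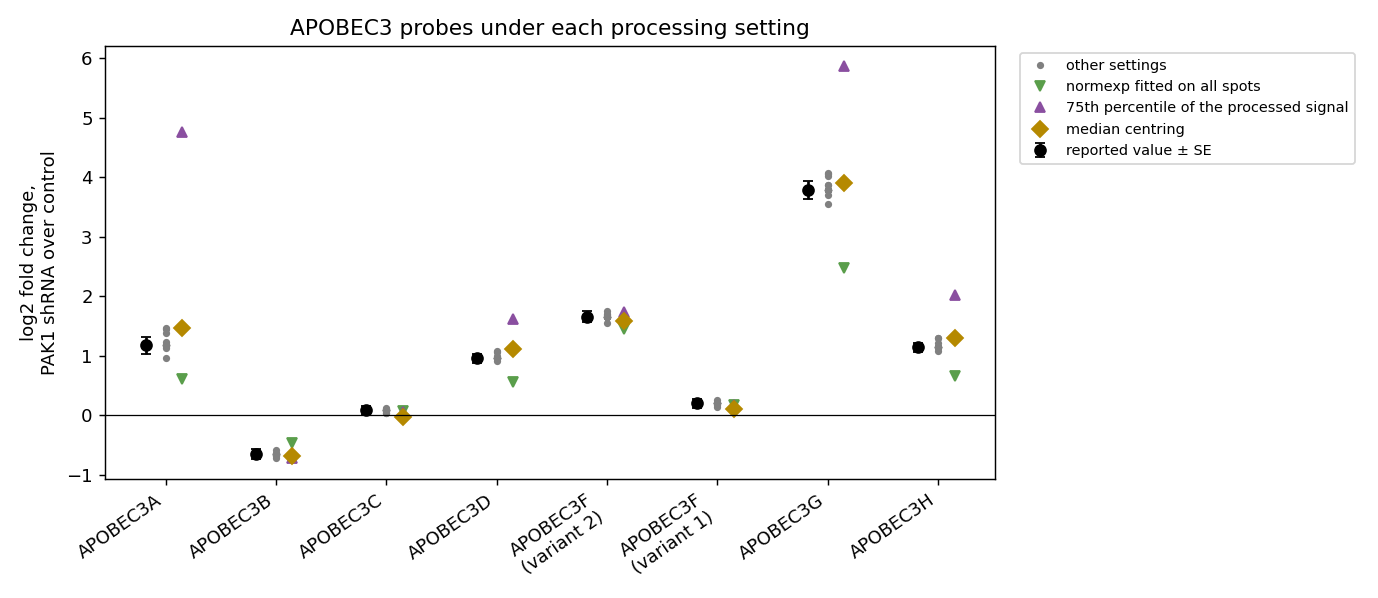
Log2 fold change (PAK1 shRNA over control) of each APOBEC3 probe as reported (black, ± SE) and under the alternatives that keep probes apart, with normexp fitted on all spots, the 75th percentile scale and median centring marked. The sign of APOBEC3B stays below 0 and that of APOBEC3A, APOBEC3D, APOBEC3F variant 2, APOBEC3G and APOBEC3H above 0, while APOBEC3C lies at about 0.

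The genes listed on both sides of the cluster fell more often than they rose. Of 13 listed neighbours on chromosome 22, 12 were tested. Of these 2 rose and 7 fell (31% and 31.9% of all genes), and 3 did not pass. Their median log2 fold change was -0.40. The list leaves out some genes close to the cluster, so it does not describe the whole stretch. On the side of APOBEC3A, CBX6, a Polycomb subunit and the nearest gene, rose (0.37, SE 0.07), as did GTPBP1 (1.31, SE 0.08), a GTP-binding protein. SUN2, a protein of the inner nuclear membrane, fell (-1.81, SE 0.09), and so did JOSD1 (-0.77, SE 0.07), a deubiquitinase, and DNAL4 (-0.46, SE 0.08), a dynein light chain. NPTXR, a neuronal pentraxin receptor, was at -0.03 and did not pass.

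On the side of APOBEC3H the nearest gene was CBX7, again a Polycomb subunit, which fell (-0.75, SE 0.14). This call did not pass with the mean over its probes (-0.25) or with the unpaired test. RPL3, a ribosomal protein, fell (-0.69, SE 0.10), as did SYNGR1 (-0.60, SE 0.10), a synaptic vesicle protein. Neither passed with the unpaired test. SYNGR1 was at -1.07 without background correction, but it has 4 probes and the brightest was chosen anew in each setting. TAB1, a partner of the kinase TAK1, also fell (-0.33, SE 0.07), with an adjusted p of 0.0513 (limma, Benjamini-Hochberg) without PAK1 shRNA replicate 1. PDGFB, a growth factor, was at -0.01 and ATF4, a stress response factor, at 0.08, and neither passed. PDGFB passed as higher under median centring (0.30), and ATF4 under cyclic loess (0.21) and with the unpaired test. MGAT3 was not well above background on both arrays of a group and was not tested.

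**Figure D4:**
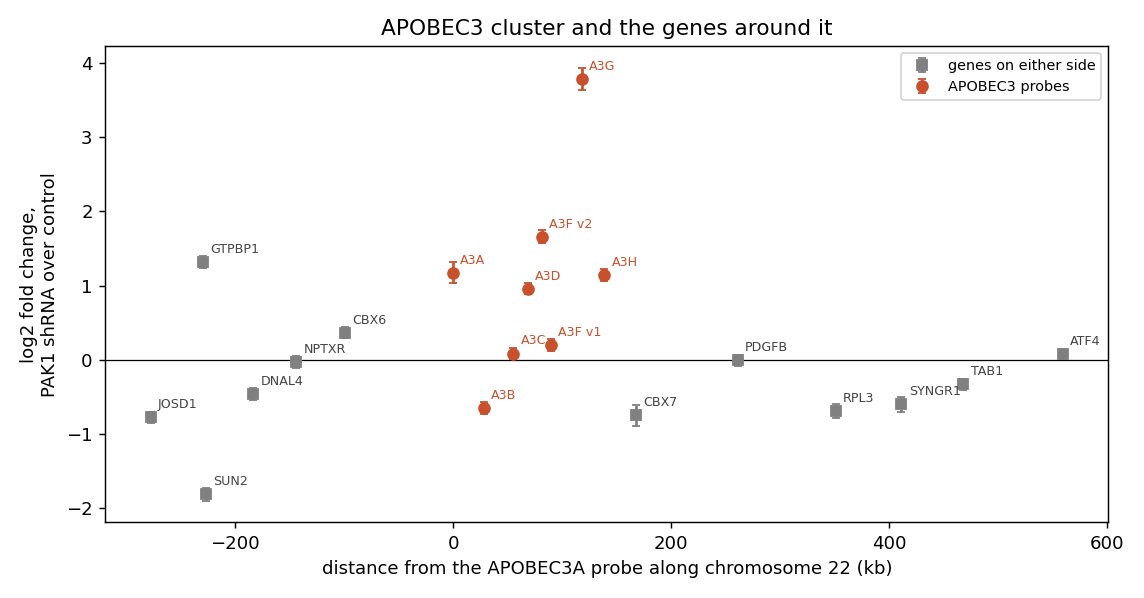
Log2 fold change (PAK1 shRNA over control, ± SE) of the APOBEC3 probes (red circles) and of the listed, tested genes on either side (grey squares). The horizontal axis is distance from the APOBEC3A probe along chromosome 22 in kb. The APOBEC3 probes lie within 138.9 kb and run from -0.65 to 3.78. The listed genes on both sides run from -1.81 to 1.31.

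The relatives of the family outside the cluster were mostly dim. APOBEC1, the editor of apolipoprotein B mRNA, and APOBEC4 were not well above background on both arrays of a group and were not tested. APOBEC2, known from muscle, read 6.46 and 6.48 on the control arrays against 6.42 and 6.29 on the PAK1 shRNA arrays (log2 fold change -0.12, adjusted p = 0.241, limma with Benjamini-Hochberg adjustment), and its sign turned under 2 of the scalings. RBM47, an RNA-binding cofactor of APOBEC1, rose (1.19, SE 0.09). A1CF, also such a cofactor, rose by 0.24 (SE 0.07), a call that was lost in 7 of the alternatives.

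Genes for other factors that restrict retroviruses and retroelements mostly rose. Of 17 listed, 16 were tested, 15 rose and 1 fell (31% and 31.9% of all genes), with a median log2 fold change of 2.68. The largest log2 fold changes were those of RSAD2 (11.02, SE 0.13), which makes a chain-terminating nucleotide, MX2 (7.52, SE 0.10), which blocks entry of the HIV-1 genome into the nucleus, and HERC5 (6.80, SE 0.09), a ligase for ISG15. IFITM2, which hinders fusion of virus and cell, rose by 0.75 and SERINC3 by 0.63. SERINC5, known to lower the infectivity of HIV-1 particles, fell (-0.55, SE 0.09). The calls of SERINC3 and SERINC5 did not pass with the unpaired test. SLFN11 was not tested. In log2 fold change APOBEC3G (3.78) thus lay above the median of this list and the other APOBEC3 genes below it.

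Regulators described in the literature for APOBEC3 genes went both ways, with 10 of 16 higher and 6 lower (31% and 31.9% of all genes). Their median log2 fold change was 0.71. STAT2 and IRF9, which carry the interferon signal to its target genes, rose with log2 fold changes of 3.72 (SE 0.09) and 3.17 (SE 0.09). The largest falls were those of E2F1 (-2.94, SE 0.07), a cell cycle transcription factor, LIN9 (-2.48, SE 0.09), a subunit of the MuvB core, and RBL1 (-2.32, SE 0.09), the pocket protein p107. The part of any of these in the APOBEC3 values was not tested.

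Enzymes that act on the uracil that APOBEC3 enzymes leave fell more often than they rose. Of 14 listed 8 fell and 4 rose (31.9% and 31% of all genes), with a median log2 fold change of -0.67. UNG, the main uracil DNA glycosylase, read 13.14 and 13.41 on the control arrays against 11.04 and 10.96 on the PAK1 shRNA arrays, a log2 fold change of -2.28 (SE 0.10, adjusted p = 6.1e-06, limma with Benjamini-Hochberg adjustment). FEN1, the flap endonuclease (-2.43, SE 0.11), and LIG1, a DNA ligase (-2.30, SE 0.08), also fell. The glycosylases MBD4 (1.014, SE 0.08) and SMUG1 (0.35, SE 0.07) rose.

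Of 8 genes for synthesis past lesions 4 fell and 2 rose (31.9% and 31% of all genes), with a median of -0.59. PRIMPOL, which restarts synthesis beyond a lesion and is named CCDC111 on the array, fell (-1.96, SE 0.07), as did MAD2L2 (-1.73, SE 0.09), a subunit of polymerase zeta, and RAD18 (-1.46, SE 0.09), a ubiquitin ligase for PCNA. REV3L, the catalytic subunit of polymerase zeta, rose (1.13, SE 0.10), as did the polymerase gene POLI (0.63, SE 0.08). POLK was at 0.06 and did not pass.

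**Figure D5:**
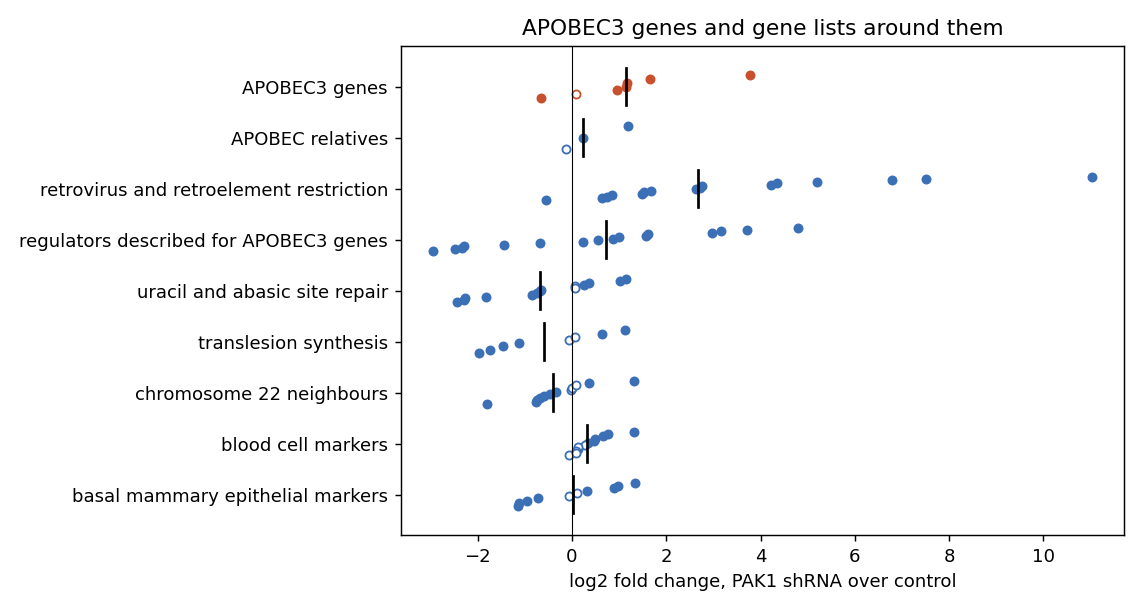
Log2 fold change (PAK1 shRNA over control) of the APOBEC3 genes (red) and of 8 gene lists (blue), with filled points for genes that passed the test, open points for those that did not, and a bar at the median. The restriction factors have a median of 2.68 and reach 11.02, against a median of 1.14 for the APOBEC3 genes.

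The cells were checked against markers of their own and of other types. All 10 markers of basal mammary epithelium were well above background on all 4 arrays, with a summed linear intensity of 574400 to 641100 in control cells and 756400 to 782400 in PAK1 shRNA cells. Of these 4 rose, among them LAMB3 (1.34), CDH1 (0.98) and CDH3 (0.90). Another 4 fell, among them the keratins KRT5 (-1.14) and KRT14 (-0.95) and the transcription factor TP63 (-1.13). Over all genes 31% rose and 31.9% fell.

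Some markers of blood cells, in which APOBEC3 genes are known to be expressed, moved in the direction of the rising APOBEC3 genes. Of 13 listed 12 were tested, 6 rose, none fell and 6 did not pass, while 31% of all genes rose and 31.9% fell. The summed intensity was 27360 to 29800 on the control arrays and 58930 to 61990 on the PAK1 shRNA arrays. CD14, a lipopolysaccharide co-receptor, rose by 1.33 (SE 0.08) from a control log2 intensity of 14.21 and 14.15. It was by far the brightest of the tested markers and carried most of the sum. CSF1R rose by 0.66, and GNLY, not above background in control cells, was at least 1.65-fold higher. The defining leukocyte marker PTPRC read 7.65 and 7.79 in control cells and 7.85 and 7.84 in PAK1 shRNA cells and did not pass (adjusted p = 0.221, limma with Benjamini-Hochberg adjustment). The B cell marker MS4A1 (-0.06) and the natural killer marker NKG7 (0.08) did not pass. Their part in the APOBEC3 results was not tested.

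Of 7 fibroblast markers 4 were tested, with a summed intensity over the list of 4165 to 4916 in control cells and 8018 to 8218 in PAK1 shRNA cells. DCN was by far the brightest of them, at a log2 intensity of 11.86 and 12.73 in the mean, and carried most of this sum. LUM (1.79), DCN (0.88) and COL1A1 (0.87) rose and PDGFRB (-0.58) fell, while 31% of all genes rose and 31.9% fell. Their part in the APOBEC3 results was likewise not tested.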

How the data were processed

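RNA (0.5 µg) from each of 4 samples was hybridized in 1 colour. The deposited files of the authors give spot intensity from Agilent Feature Extraction 9.5 (per the labels), not normalized between arrays, and a table of log2 values, of which how they were centred and scaled is not given in the sources used here. Coordinates are hg19, per the file headers. The methods name normexp, quantile normalization and limma. Here normexp (offset 50) was fitted on spots without a flagged local background, because the fit on all spots put the background mean at -666.3 and -739.7 in control cells but -10.7 and -10.2 in PAK1 shRNA cells. Arrays were quantile normalized, control spots and outlier-flagged spots left out, and spots of a probe averaged. A probe was kept if well above background on both arrays of either group, and the brightest probe in the mean represented its gene. The tests used limma 3.58.1 (lmFit, eBayes) under R 4.3.3, and p-values adjusted by Benjamini-Hochberg over all genes were called under 0.05. Of 200 genes changed in simulated data of 22001 genes for this comparison, 77% were recovered where the log2 change was 1 and 6% where it was 0.5, with 4 unchanged genes called. Only these 200 genes were changed there, whereas 62.9% of genes were called in the data, so the adjustment was stricter in the simulation. These shares are therefore not the recovery of the test on the arrays.

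Where a gene was at background in a whole group, its fold is given as "at least", measured from the dimmest signal called well above background. The genes named were the members, PAK1, every tested relative and neighbour, the 3 largest and 3 smallest changes of each other list (all of a list of up to 6 genes), and the 3 nearest profiles of the members with the largest and the smallest change; PTPRC and untested genes are named beside it, and some genes that this rule names are not reported here. The members and lists were chosen with earlier results of these data known. Gene names are those of the array; older symbols of list genes were matched through a RefSeq table, from which no coordinate was taken. The probes of APOBEC3A and of APOBEC3F variant 2 are not printed. Alternatives changed the test, its threshold, the background correction, the normalization and signal used, the filter, the handling of flags, the rule for probes, or the source of values (the authors' table), added a replicate block, or left out 1 array. With 1 slide, no slide block could be fitted.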

Additional observations from a re-analysis of the deposited data

How the results depend on the processing

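Over 18 alternatives APOBEC3G, APOBEC3F and APOBEC3H rose and passed in each. APOBEC3A could be tested in 17 and passed in 16, with an adjusted p of 0.0659 (log2 fold change 1.17) under the unpaired test that the methods give for the study in general. Requiring a 2-fold change as well left out APOBEC3D (0.96) and APOBEC3B (-0.65), so 0 APOBEC3 genes fell by that much, and left 1947 genes higher and 1971 lower, of 6822 and 7008. The unpaired test called 4370 genes higher. Median centring turned APOBEC3C to -0.037. It moved the median log2 fold change of all genes to 0.14, and the 75th percentile scale moved it to 0.12. The second APOBEC3F probe passed with normexp fitted on all spots (0.17, adjusted p = 0.045) and without control replicate 2 (0.26, adjusted p = 0.0445), both from limma with Benjamini-Hochberg adjustment. The cause of these changes was not tested.

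Among other genes, signs turned where the reported value was near 0 and did not pass, and with its sign turned PDGFB passed under median centring. On the 75th percentile scale APOBEC2 was at 0.030, NPTXR at 0.14 and PDGFB at 0.17. Under median centring APOBEC2 was at 0.21, NPTXR at 0.19, PDGFB at 0.30, MS4A1 at 0.16, ATF4 at -0.0059 and POLK at -0.036. With arrays left out in turn, NPTXR ranged from -0.072 to 0.015, PDGFB from -0.062 to 0.044 and POLK from -0.13 to 0.24; APOBEC3A ranged from 0.96 to 1.38, APOBEC3B from -0.73 to -0.58, APOBEC3C from 0.04 to 0.13, APOBEC3G from 3.55 to 4.02 and the second APOBEC3F probe from 0.14 to 0.26.

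When replicate numbers entered limma as a block, 5 APOBEC3 genes rose and 1 fell, as without it, and 6973 genes were higher and 7070 lower. Deviations of same-numbered arrays from their group means correlated at r = 0.00881 across 27517 probes. How the replicates were obtained is not stated, and this correlation cannot show whether same-numbered arrays were prepared together. The size of change was least certain for dim probes: APOBEC3A was at background in control cells and APOBEC3D, APOBEC3G and APOBEC3H read under 7.1 there, and these 4 moved by over 1.5 times with the background correction or scale.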

Other observations

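Between the probes of APOBEC3G and APOBEC3H lies that of the transcript ENST00000424436 (chr22:39487686-39487745, hg19), which was chosen after its values were seen. It read 7.63 and 7.77 on the control arrays against 7.99 and 7.95 on the PAK1 shRNA arrays, a log2 fold change of 0.27 (SE 0.08, adjusted p = 0.0264, limma with Benjamini-Hochberg adjustment). That is much less than the changes of APOBEC3G (3.78) and APOBEC3H (1.14) on either side of it.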
